A study of Homo sapiens with 6 samples.

Results

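The genes described here are 9 genes of the NRF2 antioxidant programme: NFE2L2, KEAP1, GCLC, GCLM, HMOX1, NQO1, TXNRD1, SRXN1 and PRDX1. They were taken by gene symbol, and each matched 1 of the 61280 gene rows of the expression table. The cells were MDA-MB-231, an established human triple-negative breast cancer line with mutant p53. Bulk RNA-seq gave 3 libraries of irradiated cells, taken 24 h after an X-ray dose of 20 Gy, and 3 libraries of control cells that were not irradiated. Both groups were grown in DMEM with fetal bovine serum, the labels name no genetic change in either, and how long control cells were cultured is not stated, so culture time and irradiation cannot be told apart. All cells came from 1 line, and the labels do not say whether the numbered replicates were separate cultures, so the spread behind every p-value is that between libraries and may be technical.

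NRF2, the product of NFE2L2, is a transcription factor that switches on genes against oxidants and reactive chemicals. In unstressed cells KEAP1 binds NRF2 and hands it to a CUL3 ubiquitin ligase for destruction, and modification of KEAP1 cysteines by oxidants lets NRF2 accumulate, pair with a small MAF protein and bind antioxidant response elements. NRF2 is controlled mainly at the level of the protein, which was not measured here, so the data show transcripts of the factor, its inhibitor and its classical targets only. Ionizing radiation produces oxidants in water, and NRF2 targets such as the glutathione and thioredoxin enzymes are known for removing them.

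Values are TPM, a length-corrected share of each library's transcripts, so levels can be compared between genes; read depth is unknown. Between 14592 and 14889 genes reached 1 TPM in irradiated libraries and between 14248 and 14417 in control libraries. The breast cancer line's markers VIM, CD44, EGFR, AXL and CAV1 were all expressed, PGR was at 0 and ESR1 and CDH1 were under 1 TPM in every library. The summed TPM of the 5 line markers was 2110 to 2225 in irradiated and 2610 to 2670 in control libraries, mostly VIM at 1583 to 1599 TPM in irradiated and 1936 to 2011 TPM in control libraries, and that of the 5 fibroblast markers was 12.95 to 17.4 TPM in irradiated and 9.43 to 12.9 TPM in control libraries. Other luminal epithelial markers were expressed: KRT8 and KRT18 were abundant, at 340 TPM or more in each library. ERBB2 was at 22.8 to 27.9 TPM in irradiated and 20.9 to 24.6 TPM in control libraries. EPCAM was at 8.32 to 8.61 TPM in irradiated and 9.43 to 11.3 TPM in control libraries, and GATA3 at 3.82 to 4.96 and 3.7 to 4.51 TPM. The leukocyte marker PTPRC was at 40.4 TPM in irradiated replicate 1 and at 0.45 TPM or less in the other libraries, while the leukocyte markers CD3E and LYZ in that library were at 0.05 and 0 TPM. On the second principal component (21.8% of the variance) irradiated replicates 1 and 2 lay at -23.9 and 25.4, apart from each other and from the controls at -0.36 to 4.32. Values of NFE2L2, GCLM and PRDX1 are therefore also given without either library, and lost calls of the other named genes are listed by library. The part of these features in the results was not tested. Calls lost with the replicate number as a block are named together at the end.

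Transcripts of the NRF2 programme did not move together after X-rays. NFE2L2 itself and GCLM, the modifier subunit of the enzyme that limits glutathione synthesis, were lower in irradiated cells, by 16.4% and 25.6% of the mean TPM, and PRDX1, an abundant peroxiredoxin, was higher by 12.4%. HMOX1, NQO1, TXNRD1, SRXN1, GCLC and KEAP1 did not pass the test. That made 1 member higher and 2 lower, 3 of 9 (33.3%), where 10.6% of the 14621 genes tested were called (limma on log2(TPM + 1), Benjamini-Hochberg adjusted p under 0.05; 6.53% higher and 4.07% lower). The median log2 change was -0.02 over the 9 genes and 0.03 over all tested genes. These medians were -0.09 and -0.02 after GC and length correction, and -0.05 and -0.00071 after median-ratio scaling. In both of these fits 0 members were called higher and 2 lower. An adjusted p under 0.05 implies an unadjusted p under 0.05, so all 3 members called as reported met that as well, and no other member did. At that unadjusted threshold 2478 of the 14621 tested genes were higher and 1621 lower (limma). With 9 genes chosen by name the count is a description, and none of the 3 calls was kept without irradiated replicate 1 or 3, without control replicate 1 or 2, with no filter on low values or with eBayes without a trend, where 3 or 4 members had an unadjusted p under 0.05 (limma).

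**Figure D1:**
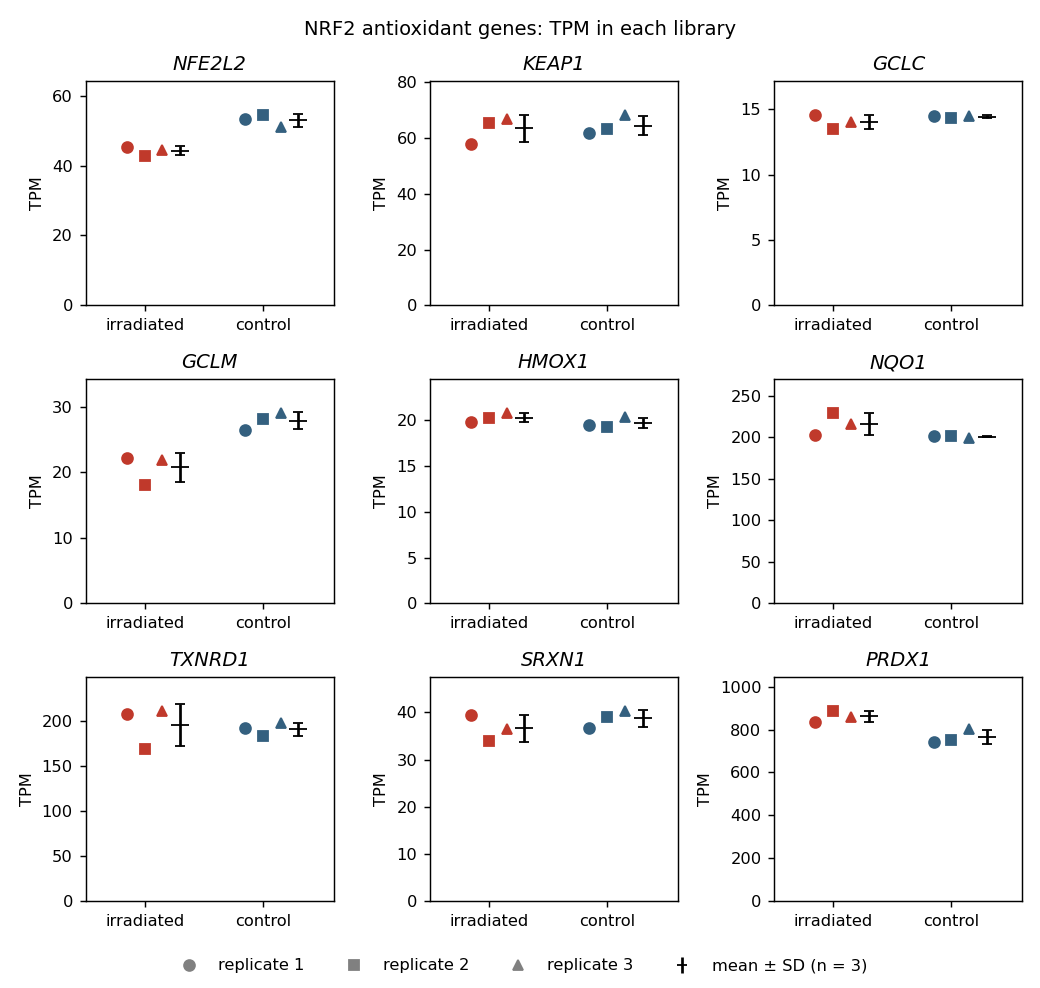
TPM of each of the 9 genes in the 3 irradiated libraries (red, left) and the 3 control libraries (blue, right), with the marker shape giving the replicate number and the black bar the mean ± SD; each vertical axis starts at 0. The groups do not overlap for NFE2L2 and GCLM, which are lower in irradiated cells, or for PRDX1 and NQO1, which are higher; the other 5 genes overlap.

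NFE2L2 (ENSG00000116044; chromosome 2, 177227595 to 177392697, minus strand, hg38), the gene of NRF2, was at 45.3, 42.9 and 44.4 TPM in irradiated replicates 1, 2 and 3, against 53.4, 54.4 and 50.9 TPM in the control libraries. Every irradiated value lay below every control value. The mean was 44.2 ± 1.25 TPM in irradiated cells and 52.9 ± 1.78 TPM in control cells (SD, n = 3 each), a log2 change of -0.25 ± 0.05 (SE) with a 95% interval of -0.38 to -0.13 and an adjusted p of 0.0268 (limma). This bulk measurement cannot tell a lower level in all cells from a loss in some of them. The log2 change was -0.27 without irradiated replicate 1 (limma adjusted p = 0.0595) and -0.23 without irradiated replicate 2 (limma adjusted p = 0.0415). The call was also lost without irradiated replicate 3 or control replicate 1 or 2, with no filter and with eBayes without trend, with adjusted p up to 0.108 (limma).

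KEAP1 (ENSG00000079999; chromosome 19, 10486120 to 10503741, minus strand), the substrate adaptor that holds NRF2 in check, was at 58.0, 65.5 and 66.8 TPM in irradiated cells and at 61.7, 63.4 and 68.2 TPM in control cells. The groups overlapped, with irradiated replicate 1 the lowest of the 6. The log2 change was -0.02 ± 0.07 (SE), with a 95% interval of -0.19 to 0.14 (limma adjusted p = 0.860), and its sign turned to 0.04 without irradiated replicate 1 and to 0.02 without control replicate 3; after GC and length correction it was -0.14. The interval on the fold scale, 0.879 to 1.10, contains small changes in both directions.

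GCLC and GCLM encode the catalytic and the modifier subunit of glutamate-cysteine ligase, which joins glutamate and cysteine in the limiting step of glutathione synthesis; the modifier raises the catalytic subunit's activity. GCLM (ENSG00000023909; chromosome 1, 93885205 to 93909456, minus strand) was at 22.2, 18.1 and 21.9 TPM in irradiated libraries, against 26.4, 28.1 and 29.02 TPM in control libraries. All 3 irradiated values were below all 3 control values, and irradiated replicate 2 was the lowest. The mean was 20.7 ± 2.28 TPM in irradiated cells and 27.9 ± 1.31 TPM in control cells (SD, n = 3 each), a log2 change of -0.41 ± 0.09 (SE), a 95% interval of -0.63 to -0.20 and an adjusted p of 0.0321 (limma). It was the change of greatest size among the 9. Without irradiated replicate 2 it was -0.32 (limma adjusted p = 0.0342), and without irradiated replicate 1 it was -0.46 (limma adjusted p = 0.0536). The call was also lost without irradiated replicate 3 or any 1 control library, with no filter and with eBayes without trend, with adjusted p up to 0.113 (limma).

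GCLC (ENSG00000001084; chromosome 6, 53497341 to 53616970, minus strand) was at 14.5, 13.5 and 14.0 TPM in irradiated cells and at 14.5, 14.3 and 14.4 TPM in control cells. Irradiated replicate 1 was the highest of all 6 and irradiated replicate 2 the lowest, so the groups overlapped. The log2 change was -0.04 ± 0.07 (SE), with a 95% interval of -0.20 to 0.12 (limma adjusted p = 0.759).

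The ratio of the 2 subunits' TPM was 1.53, 1.34 and 1.56 in irradiated libraries, against 1.82, 1.97 and 2.01 in control libraries. Each irradiated ratio lay below each control ratio, with means of 1.48 ± 0.117 in irradiated and 1.93 ± 0.0975 in control cells (SD, n = 3 each). The mean log2 difference was -0.39, with p = 0.1 in a two-sided exact permutation test, the smallest p that 3 against 3 libraries can give. A ratio within a library is not altered by scaling the whole library, and it shows unequal change of the 2 transcripts, not which of them changed. The NFE2L2 to KEAP1 ratio was 0.781, 0.654 and 0.665 in irradiated libraries and 0.866, 0.858 and 0.747 in control libraries. Irradiated replicate 1 lay above control replicate 3, so these groups overlapped (log2 difference -0.24, exact permutation p = 0.2, two-sided).

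**Figure D2:**
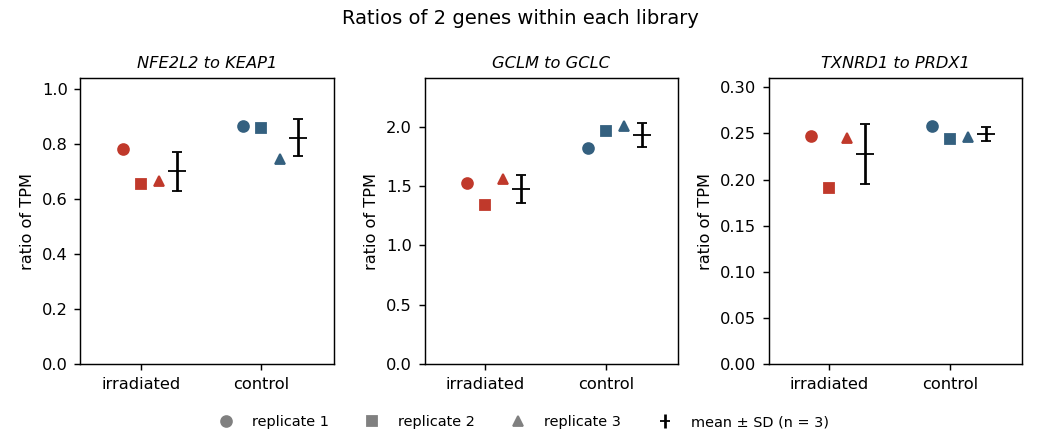
Ratio of the TPM of 2 genes within each library, for irradiated (red, left) and control (blue, right) libraries, with marker shapes for replicates and the black bar for mean ± SD; the axes start at 0. The GCLM to GCLC ratio runs from 1.34 to 1.56 in irradiated libraries and from 1.82 to 2.01 in control libraries, while the other 2 ratios overlap between groups.

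Antioxidant response elements have the core TGACNNNGC, which was searched on both strands of the RefSeq promoter table (GRCh38.p14, 250 bases before to 50 after each start). The table held 10 promoters of 7 of the 9 genes, without HMOX1 and PRDX1. The core was found in 4 of these 10 promoters, those of GCLM, KEAP1 (1 of its 2) and TXNRD1 (both), and in 13.3% of all 35116 promoters. The AP-1 motif TGANTCA, which resembles the element, was in none of the 10 and in 7.71% of all. The stretches around the core are shown because GCLM and KEAP1 hold the same 9 bases at nearly the same distance from a start. GCLM fell and KEAP1 did not pass the test. The KEAP1 stretch lies in the second of its 2 promoters, and the first holds no match. Which KEAP1 start was used was not tested. A further match in the same KEAP1 promoter, TGACACGGC at -54 to -46, and 1 in the first TXNRD1 promoter, at -8 to 1, are not shown with their surroundings. Each reads 5′ to 3′ on the gene's strand, and capitals mark the core or its reverse complement.
GCLM, chr1:93909446-93909474, minus strand, core at -34 to -26: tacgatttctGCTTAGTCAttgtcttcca
KEAP1, chr19:10502784-10502812, minus strand, core at -31 to -23: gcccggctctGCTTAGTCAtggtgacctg
TXNRD1, chr12:104215670-104215698, plus strand, core at -99 to -91: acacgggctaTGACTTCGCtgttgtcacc
TXNRD1, second promoter, chr12:104286920-104286948, plus strand, core at -102 to -94: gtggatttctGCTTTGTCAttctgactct
The GCLM and KEAP1 matches shown both read TGACTAAGC on the other strand. A match is a run of letters, not a measured binding site, and elements outside these windows were not searched.

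HMOX1, which encodes heme oxygenase, the enzyme that opens the heme ring, was at 19.7, 20.2 and 20.7 TPM in irradiated cells and at 19.4, 19.2 and 20.2 TPM in control cells. HMOX1 (ENSG00000100292; chromosome 22, 35380361 to 35394214, plus strand) had overlapping groups and a log2 change of 0.04 ± 0.06 (SE), with a 95% interval of -0.10 to 0.19 (limma adjusted p = 0.704), which turned to -0.09 after correction for GC content and transcript length. On the fold scale the interval was 0.930 to 1.14.

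NQO1 (ENSG00000181019; chromosome 16, 69706996 to 69726951, minus strand) encodes the quinone reductase that is a standard readout of NRF2 activity. It was at 203, 229 and 216 TPM in irradiated libraries, against 201, 201 and 199.5 TPM in control libraries. All irradiated values lay above all control values, but irradiated replicate 1 did so by little, and the irradiated spread (SD 12.9 TPM, n = 3) was wider than the control spread (SD 0.828 TPM, n = 3). The log2 change was 0.10 ± 0.05 (SE), with a 95% interval of -0.01 to 0.22, and did not pass the test (limma adjusted p = 0.217). Groups did not overlap for 4 of the 9 genes, 2 higher and 2 lower, and for 34.9% of all tested genes (20.4% higher and 14.5% lower).

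TXNRD1, SRXN1 and PRDX1 form a chain: thioredoxin reductase keeps thioredoxin reduced, thioredoxin recharges peroxiredoxins that remove hydrogen peroxide, and sulfiredoxin repairs peroxiredoxins that have been over-oxidized. PRDX1 (ENSG00000117450; chromosome 1, 45511036 to 45523047, minus strand) was at 837, 885 and 860.0 TPM in irradiated libraries, against 742, 752 and 802 TPM in control libraries. Every irradiated value was above every control value, with means of 861 ± 24.3 TPM in irradiated and 765 ± 32.1 TPM in control cells (SD, n = 3 each). The log2 change was 0.17 ± 0.04 (SE), with a 95% interval of 0.07 to 0.27 and an adjusted p of 0.0490 (limma). This call lay at the threshold. It was 0.07 after correction for GC content and transcript length (limma adjusted p = 0.2504) and 0.14 after median-ratio scaling (limma adjusted p = 0.189). It was 0.19 without irradiated replicate 1 and 0.15 without irradiated replicate 2 (limma adjusted p = 0.0775 and 0.0946). It was also lost without irradiated replicate 3 or control replicate 1 or 2, with no filter and with eBayes without trend.

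TXNRD1 (ENSG00000198431; chromosome 12, 104215779 to 104350305, plus strand) was at 207, 169 and 211 TPM in irradiated cells and at 192, 183 and 197 TPM in control cells. Irradiated replicates 1 and 3 lay above and irradiated replicate 2 below all controls. The log2 change was 0.03 ± 0.09 (SE), with a 95% interval of -0.17 to 0.23 (limma adjusted p = 0.854). Without irradiated replicate 2 it was 0.13, without irradiated replicate 1 -0.02, without irradiated replicate 3 -0.03 and after median-ratio scaling -0.0011, so its sign turned with single libraries and with the scaling.

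SRXN1 (ENSG00000271303; chromosome 20, 646615 to 653370, minus strand) was at 39.4, 33.9 and 36.4 TPM in irradiated cells and at 36.8, 39.1 and 40.2 TPM in control cells. The groups overlapped, and the log2 change was -0.08 ± 0.07 (SE), with a 95% interval of -0.25 to 0.09 (limma adjusted p = 0.4996). It was -0.14 without irradiated replicate 1, -0.03 without irradiated replicate 2 and -0.17 after GC and length correction. The TXNRD1 to PRDX1 ratio was 0.248, 0.191 and 0.245 in irradiated libraries and 0.258, 0.244 and 0.246 in control libraries. Only irradiated replicate 2 stood clearly below the controls (log2 difference -0.14, exact permutation p = 0.5, two-sided).

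**Figure D3:**
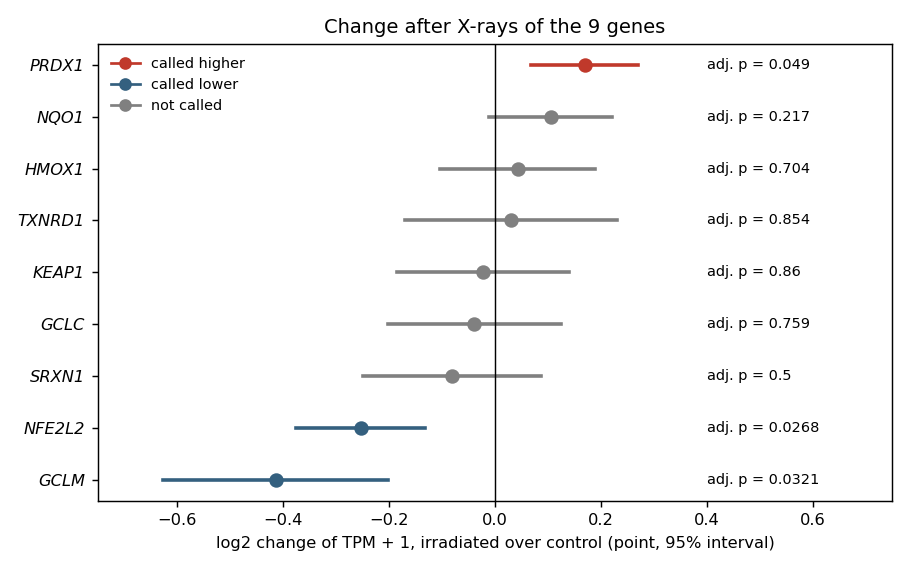
Log2 change of TPM + 1, irradiated over control, for the 9 genes, with the point estimate and its 95% interval from limma; red marks the gene called higher, blue those called lower and grey those not called, with adjusted p at the right. GCLM and NFE2L2 lie left of 0, PRDX1 right of 0, and the 6 other intervals include 0.

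The 9 transcripts differed widely in level. Ordered by mean TPM over the 6 libraries they were PRDX1 (813), NQO1 (208), TXNRD1 (193), KEAP1 (63.9), NFE2L2 (48.5), SRXN1 (37.6), GCLM (24.3), HMOX1 (19.9) and GCLC (14.2). PRDX1 ranked 165 of 14621 tested genes by this level and GCLC 7025. Most neighbours in this order had ranges over the 6 libraries that did not overlap, the exceptions being NQO1 with TXNRD1 and GCLM with HMOX1. GCLM stood above HMOX1 in 5 libraries and below it in irradiated replicate 2. The summed TPM of the 9 genes was 1446, 1477 and 1491 in irradiated libraries and 1347, 1354 and 1422 in control libraries; without PRDX1 the sums were 609, 592 and 631 in irradiated and 605, 603 and 620 TPM in control libraries. The higher sum in irradiated cells was thus that of PRDX1, and the other 8 genes together had overlapping groups.

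Among the irradiated libraries, replicate 2 was the lowest for 5 of the 9 genes (NFE2L2, GCLC, GCLM, TXNRD1 and SRXN1) and the highest for NQO1 and PRDX1. Replicate 1 was the lowest for the other 4. Both patterns are within the irradiated group, where the libraries lay apart on the second principal component, and their source was not tested.

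Reads of overlapping genes can enter these values, since the sources used here give no strand setting. MMACHC overlaps PRDX1 by 2347 bases on the opposite strand and was at 8.65 to 12.6 TPM in irradiated and 10.3 to 11.0 TPM in control libraries. The antisense RNA AC089983.1 overlaps TXNRD1 by 18409 bases and was at 6.17 to 7.63 TPM in irradiated and 4.72 to 6.66 TPM in control libraries. AGPS, at 38.3 to 51.4 TPM in irradiated and 51.3 to 54.7 TPM in control libraries, overlaps NFE2L2 by 54 bases on the opposite strand. On the same strand AC019080.1 overlaps NFE2L2 by 109184 bases, at 1.38 to 2.1 TPM in irradiated and 1.13 to 1.56 TPM in control libraries. The row AL121758.1 overlaps SRXN1 by 6745 bases on the same strand and was at 0 TPM in every library. The pseudogene PRDX1P1 was at 0.3 TPM in irradiated replicate 3 and at 0 in the other 5 libraries.

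The profile most like that of NFE2L2 was sought among 10068 genes with a symbol and a mean of at least 5 TPM, by the root-mean-square difference of centred log2(TPM + 1) values over the 6 libraries. The nearest were CNIH1 (0.0199), HDAC2 (0.0205) and HNRNPUL1 (0.0206), where the root-mean-square of NFE2L2's own values was 0.132. For GCLM (own value 0.229) they were JRK (0.0341), RIOK1 (0.0373) and P3H2 (0.0386), and for PRDX1 (own value 0.0945) PNP (0.00780), MTMR14 (0.0139) and NDUFA11 (0.0142). PNP was at 235, 246 and 240.3 TPM in irradiated and 209.6, 212 and 226 TPM in control libraries, and its 6 values stood in the same order as those of PRDX1. With 6 libraries and this many genes, close profiles are a description only.

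The wider set of NRF2-linked and other antioxidant genes held 108 genes, of which 104 were tested. Of these 18 were higher and 5 lower in irradiated cells, which is 22.1% called where 10.6% of all tested genes were (6.53% higher and 4.07% lower), with a median log2 change of 0.05 against 0.03 over all tested genes. This balance turned with the processing: 11 were higher and 14 lower after correction for GC content and transcript length, and 11 higher and 8 lower after median-ratio scaling. Of the 18 that rose, 8 belonged to the glutathione group and 5 to the detoxification, heme and iron group, and the 5 that fell were NFE2L2, NFE2L3, GCLM, RPIA and MTHFD2. With the GC and length correction the calls over all genes were 844 higher and 1477 lower. After median-ratio scaling they were 778 higher and 852 lower, against 955 higher and 595 lower as reported. A filter of 5 TPM gave 27 called listed genes, against 1551 called of 10512 over all genes. Protein-coding genes only gave 26 called listed genes, against 1798 called of 12141 over all genes.

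A group of 15 genes held NFE2L2 itself, its relatives NFE2L1 and NFE2L3, and genes that control NRF2 or partner with it. None rose and 2 fell, NFE2L2 and NFE2L3, so no controller or partner was called as reported. The group's median log2 change was -0.02, and -0.05 after median-ratio scaling and -0.098 after GC and length correction. The share called was 13.3%, near the 10.6% over all tested genes. At an unadjusted limma p under 0.05 there were 0 higher and 4 lower, against 2478 higher and 1621 lower of the 14621 tested genes. NFE2L3, a relative of NRF2 anchored in the endoplasmic reticulum membrane, was at 41.9, 38.5 and 39.1 TPM in irradiated cells, against 55.2, 51.5 and 49.8 TPM in control cells, without overlap. Its log2 change was -0.38 ± 0.06 (SE; limma adjusted p = 0.0145). That call was lost without irradiated replicate 3 or control replicate 1 or 2, with adjusted p up to 0.0624 (limma). CUL3, the ligase scaffold that KEAP1 recruits, was at 42.8, 43.0 and 45.2 TPM in irradiated and 51.0, 50.1 and 48.6 TPM in control cells, also without overlap, and missed the threshold (log2 change -0.19 ± 0.05 SE, limma adjusted p = 0.0567), though it was called in 2 of 16 alternatives. SQSTM1 (-0.10), BACH1 (-0.07) and MAFG (-0.14), given with their log2 changes, did not pass either, but SQSTM1 was called lower after GC and length correction (log2 change -0.21, limma adjusted p = 0.00855), and BACH1 changed sign in an alternative (up to 0.04).

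Of 27 tested genes of glutathione synthesis, use and export, 8 rose and 1, GCLM, fell (median log2 change 0.02, and -0.01 after median-ratio scaling). That is 33.3% called, against 10.6% over all tested genes (6.53% higher and 4.07% lower). After correction for GC content and transcript length 6 were higher and 4 lower. GSTK1, a glutathione transferase of mitochondria and peroxisomes, was at 117, 123 and 116 TPM in irradiated cells, against 83.2, 83.0 and 80.9 TPM in control cells (log2 change 0.53 ± 0.04 SE, limma adjusted p = 0.00259). GSTM3, a transferase of the mu class, was at 210.4, 222 and 222 TPM in irradiated cells and at 149.6, 154 and 165 TPM in control cells (log2 change 0.48 ± 0.05 SE, limma adjusted p = 0.00453). Neither gene's groups overlapped, and both calls were kept under every alternative. GSTM genes are close copies of each other, so reads may be shared between them. GPX3, a secreted glutathione peroxidase, averaged 39.5 ± 3.41 TPM in irradiated and 29.3 ± 2.06 TPM in control cells (SD, n = 3 each; log2 change 0.42 ± 0.08 SE, limma adjusted p = 0.0242), a call lost with no filter and without irradiated replicate 3 or control replicate 1 or 2. The cystine carrier gene SLC7A11 was at 23.1, 15.6 and 24.6 TPM in irradiated and 21.6, 22.1 and 20.8 TPM in control cells, with irradiated replicate 2 again the lowest (log2 change -0.05 ± 0.16 SE, limma adjusted p = 0.860); over the alternatives its log2 change ran from -0.17 to 0.14.

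Of 17 genes of the thioredoxin and peroxiredoxin system, PRDX1 and TXNIP rose and none fell (median log2 change 0.03, and -0.00114 after median-ratio scaling and -0.00627 after GC and length correction). At an unadjusted limma p under 0.05 there were 4 higher and 0 lower, against 2478 higher and 1621 lower of the 14621 tested genes. The share called, 11.8%, was near the 10.6% over all tested genes. TXNIP, whose protein binds and inhibits thioredoxin, was at 47.2, 42.5 and 47.1 TPM in irradiated cells, against 39.8, 35.9 and 37.6 TPM in control cells. Its log2 change of 0.26 ± 0.07 (SE; limma adjusted p = 0.0477) was near the threshold, and the call was lost with a pseudocount of 0.1, with no filter, with eBayes without trend, and without irradiated replicate 1 or 3 or any 1 control library. Of 9 NADPH supply genes 1 rose and 2 fell, which is 33.3% called, against 10.6% over all tested genes. After GC and length correction 0 were higher and 3 lower. RPIA, an isomerase of the pentose phosphate pathway, was at 21.7, 22.8 and 23.6 TPM in irradiated and 29.9, 29.8 and 30.9 TPM in control cells (log2 change -0.40 ± 0.06 SE, limma adjusted p = 0.0116). That call was lost without control replicate 1 or 2 and with the replicate number as a block. MTHFD2, a mitochondrial folate enzyme, also fell (log2 change -0.37 ± 0.08 SE, limma adjusted p = 0.0351) and PGLS, the lactonase of the pentose phosphate pathway, rose (log2 change 0.27 ± 0.05 SE, limma adjusted p = 0.0247). MTHFD2 lost its call with no filter, with eBayes without trend, and without irradiated replicate 1 or 2 or any 1 control library. PGLS lost its call with no filter, with eBayes without trend, after median-ratio scaling, after GC and length correction (log2 change 0.12), and without irradiated replicate 1 or 3 or control replicate 1 or 2.

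Of 24 tested genes of quinone and carbonyl detoxification, heme and iron handling, 5 rose and none fell (1 at an unadjusted limma p under 0.05), with a median log2 change of 0.15 (0.12 after median-ratio scaling and 0.09 after GC and length correction). With that correction 3 were higher and 2 lower, and after median-ratio scaling 3 higher and 1 lower. As reported, 20.8% of the group was called, against 10.6% over all tested genes. At an unadjusted limma p under 0.05 the group had 10 higher and 1 lower, against 2478 higher and 1621 lower of 14621 tested genes. AKR1C3, an aldo-keto reductase of steroids and prostaglandins, was at 24.97, 26.9 and 28.4 TPM in irradiated cells, against 17.4, 16.7 and 18.4 TPM in control cells (log2 change 0.58 ± 0.07 SE, limma adjusted p = 0.00736); its close copies may share reads. BLVRB, a biliverdin reductase, ranged over 129.8 to 132 TPM in irradiated cells and 84.6 to 97.2 TPM in control cells (log2 change 0.54 ± 0.06 SE, limma adjusted p = 0.00484). Both kept their calls under every alternative. EPHX1, the microsomal epoxide hydrolase, averaged 24.3 ± 0.241 TPM in irradiated and 17.7 ± 0.280 TPM in control cells (SD, n = 3 each). Its log2 change was 0.44 ± 0.06 (SE, limma adjusted p = 0.00858). EPHX1 lost its call only with the replicate number as a block (limma adjusted p = 0.0502). BLVRA, the other biliverdin reductase (log2 change 0.25 ± 0.06 SE, limma adjusted p = 0.0459), lost its call with no filter, with eBayes without trend, after median-ratio scaling, after GC and length correction (log2 change 0.15), and without any 1 irradiated library or control replicate 1 or 2. HMOX1, NQO1 and the ferritin chains FTH1 (log2 change -0.09) and FTL (log2 change 0.11) did not pass. After GC and length correction FTH1 was called lower (log2 change -0.18, limma adjusted p = 0.0432) and FTL was at -0.03.

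Of 12 superoxide dismutase, catalase and other antioxidant genes, SOD3 (log2 change 0.40 ± 0.08 SE, limma adjusted p = 0.0269) and MSRB1 (log2 change 0.29 ± 0.07 SE, limma adjusted p = 0.0394) rose and none fell (2 at an unadjusted limma p under 0.05; median log2 change 0.03, and -0.01 after median-ratio scaling and -0.04 after GC and length correction). The share called was 16.7%, against 10.6% over all tested genes. Called genes were 1 higher and 2 lower after GC and length correction, and 1 higher and 1 lower after median-ratio scaling. At an unadjusted limma p under 0.05 the group had 5 higher and 2 lower, against 2478 higher and 1621 lower of 14621 tested genes. SOD3 is a secreted superoxide dismutase and was at 11.2, 11.9 and 11.0 TPM in irradiated cells, against 8.59, 8.51 and 8.12 TPM in control cells. MSRB1 is a methionine sulfoxide reductase. SOD3 had a log2 change of 0.26 after GC and length correction and lost its call with no filter, after quantile normalization, and without irradiated replicate 1 or 3 or any 1 control library. MSRB1 lost its call with no filter, with eBayes without trend, after median-ratio scaling, after GC and length correction (log2 change 0.14), and without any 1 irradiated library or control replicate 1 or 2.

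**Figure D4:**
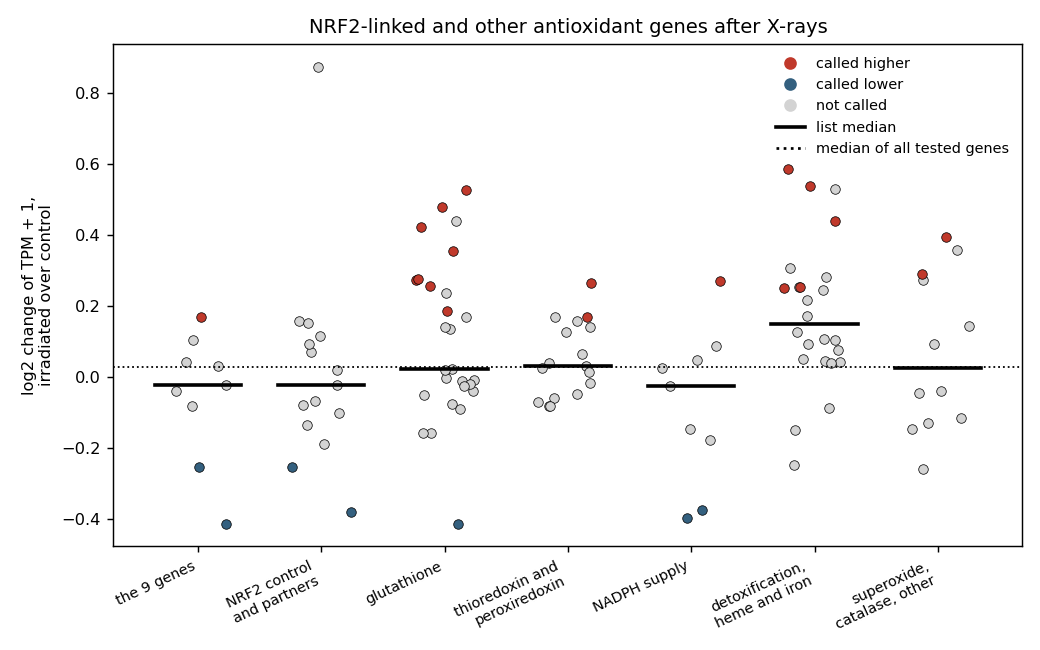
Log2 change of TPM + 1, irradiated over control, for each tested gene of 7 groups; red points were called higher, blue lower and grey not called, black bars are group medians and the dotted line is the median of all tested genes (0.03). The detoxification, heme and iron group has a median of 0.15, and the grey point at 0.87 is GSK3B, whose irradiated values spread from 35.8 to 131 TPM.

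**Figure D5:**
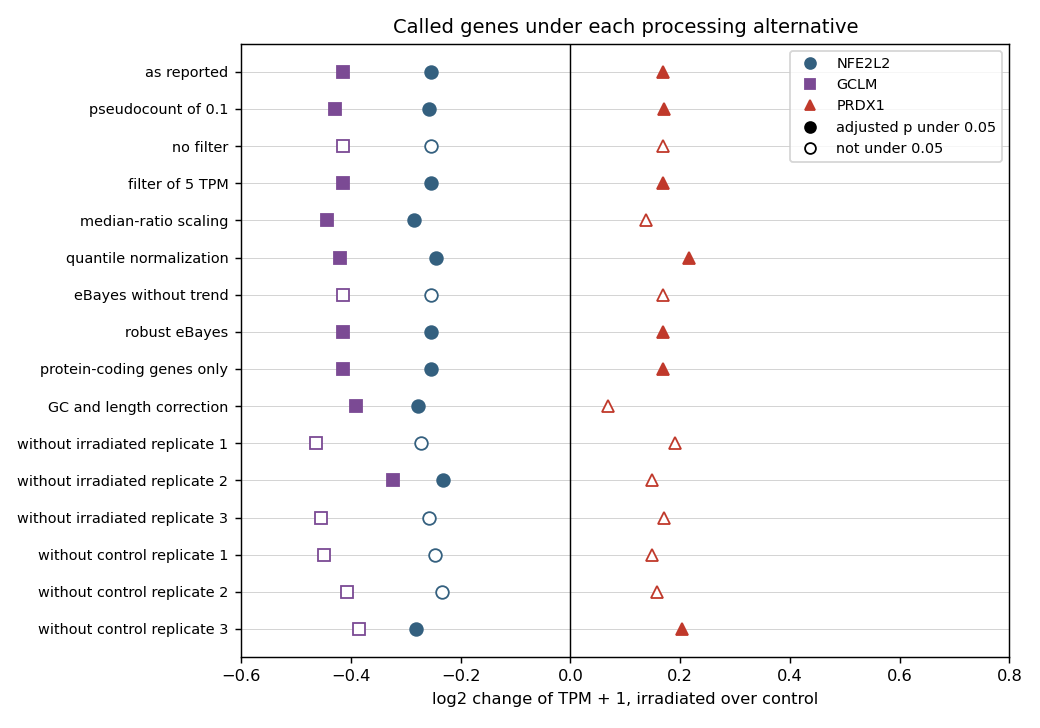
Log2 change of NFE2L2, GCLM and PRDX1 as reported and under 15 of the 16 alternatives (the fit with a replicate block is not drawn), with filled markers where the adjusted p was under 0.05. No gene of the figure was called in the fit that is not drawn. All markers of NFE2L2 and GCLM lie left of 0 and those of PRDX1 right of 0, while PRDX1 moves to 0.07 after correction for GC content and transcript length.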

How the data were processed

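Per the labels, RNA-seq libraries of total RNA were prepared with a TruSeq kit. The submitters' processing notes name HISAT2, StringTie, RSEM and the build hg38, without versions or roles. The authors deposited 1 table of TPM values for 6 libraries. TPM is a share of each library, no scaling between libraries is recorded, and the read depth is unknown, so precision rests on the spread between libraries.

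Groups and replicate numbers came from the sample titles. No library repeated another of its own group (at most 0.479% of tested rows shared a value). Libraries of different groups were not compared in this way. The 14621 genes that reached 1 TPM in 3 or more libraries were compared on log2(TPM + 1), which understates changes of low genes, with limma 3.58.1 in R 4.3.3 (lmFit, eBayes with trend; residual degrees of freedom 4, prior 3.39) in two-sided tests, Benjamini-Hochberg adjusted over all tested genes, threshold 0.05. Ratios were compared by exact permutation of the 20 assignments. All 9 members passed the filter. Of the 108 listed genes GPX2, ABCC2, AKR1B10 and AKR1C2 did not. Members and lists were chosen with earlier results of these data known. Named were the 9 members, up to 4 called genes of greatest change per list and the nearest profiles. CUL3, SQSTM1, BACH1, MAFG, SLC7A11, FTH1, FTL, GSK3B and AKR1C2 were named after their values were seen. Coordinates, transcript lengths and GC content came from GENCODE 29, on the hg38 assembly; 97.4% of tested rows had length and GC values. Promoters came from RefSeq (GRCh38.p14). The pipeline was tested on simulated data. Alternatives were another pseudocount (0.1), median-ratio scaling, quantile normalization, a filter of 5 TPM or none, eBayes without trend or robust, protein-coding genes only, removal of cubic trends on GC content and log2 length per library, each library left out, and the replicate number as a block.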

Additional observations from a re-analysis of the deposited data

How the results depend on the processing

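Of 368 repeats for 23 named genes, 271 kept direction and side of the threshold, 91 kept direction but lost the call and 6 turned, all of genes that were not called. Those were KEAP1 without irradiated replicate 1 (0.0387) and without control replicate 3 (0.0176), HMOX1 after GC and length correction (-0.0904), and TXNRD1 after median-ratio scaling (-0.0011), without irradiated replicate 1 (-0.0152) and without irradiated replicate 3 (-0.027); the cause was not tested. With 1 library left out, the log2 change ran from -0.0608 to 0.0387 for KEAP1 and from -0.027 to 0.1317 for TXNRD1. With no filter 32164 genes were tested, among them all 108 listed genes. The counts of called genes were then 497 over all genes, 0 over the 9 members and 9 over the listed genes. As reported they were 1550, 3 and 23, with 104 listed genes tested (limma). With eBayes without trend they were 993, 0 and 11. Leaving out 1 library gave 306 to 1390 calls over all genes, 0 to 2 members and 5 to 18 listed genes. In the fits with 0 members called, 3 or 4 members had an unadjusted p under 0.05 (limma). Fits without a library have fewer samples, so a lost call need not depend on the library. With the replicate number as a block, 362 genes, 0 members and 6 listed genes were called. Of the named genes called as reported, NFE2L3, GSTK1, GSTM3, AKR1C3 and BLVRB kept their calls in that fit. Those of NFE2L2, GCLM, PRDX1, GPX3, TXNIP, RPIA, MTHFD2, PGLS, EPHX1, BLVRA, SOD3 and MSRB1 were lost. Same-numbered libraries deviated from their group means with correlations of 0.03, -0.06 and -0.03, and the numbers were not taken as pairs. The 3 ratios kept their direction in every alternative run. An exact permutation test of 3 against 3 libraries cannot go below 0.1, so the ratios' p-values say nothing on stability. Read depth is unknown, so counting error cannot be given.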

Other observations

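GSK3B, a kinase that marks NRF2 for destruction independently of KEAP1, was at 131, 43.3 and 35.8 TPM in irradiated replicates 1, 2 and 3, against 28.9, 24.6 and 44.9 TPM in control libraries. Its groups overlapped (limma adjusted p = 0.268), and its highest value fell in the library in which PTPRC was at 40.4 TPM. AKR1C2, another aldo-keto reductase, did not pass the filter on low values and was at 1.64, 1.27 and 0.86 TPM in irradiated libraries, against 0.37, 0.05 and 0.02 TPM in control libraries. Reads of the close copies AKR1C1 and AKR1C3 may be shared with AKR1C2. The groups of GPX2, ABCC2 and AKR1B10, which also did not pass the filter, overlapped.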
